A study of Arabidopsis thaliana with 9 samples.

Results

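The regions described here are the 300 stretches of the Arabidopsis thaliana root genome that were most open in the stele, the central cylinder of the root, among 20803 regions for which chromatin accessibility was given by cell cluster. They were chosen by their accessibility alone. In each region the mean value of accessibility clusters 17 to 21 was divided by the mean of the other 16 clusters, each plus 0.1, and the 300 regions with the highest ratio were kept, which is 1.44% of all regions. Accessibility differences between these 2 sets of clusters are therefore a description of the choice, and no test is made of them. Nuclei came from chopped roots of 7-day-old Col-0 seedlings (the reference accession, with no mutation or treatment named) grown upright on plates of MS medium, and were sorted by flow cytometry. Accessibility was measured by single-nucleus ATAC-seq in 2 libraries, and RNA by single-nucleus RNA-seq in 5 libraries of the same kind of root. A further table gives RNA of whole root cells in 20 clusters, and the labels tie no sample to it.

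In ATAC-seq a transposase inserts into DNA that is not covered by nucleosomes, so fragments pile up at promoters, enhancers and other regulatory DNA that is open in a cell. The stele holds the tissues of long-distance transport. Xylem carries water and minerals, phloem carries sugars, amino acids and signals, procambium is the dividing tissue from which both arise, and the pericycle is the layer around them. Phloem loading depends on sugar and amino acid carriers in companion cells and neighbouring parenchyma, which draw on the proton gradient set up by plasma membrane H+-ATPases.

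Each value is 1 pooled average per cluster, so there is no replicate value, no error and no test for any number below. Depth behind the averages is unknown. Accessibility is given per 10000 of a cluster's column total. The quartiles of the mean over the 21 clusters were 0.453 and 0.507 over all regions, although regions were 3 to 41791 bp wide, so a value shows how a region differs between clusters and not how open it is beside another region. RNA is given as UMI signal per 10000. Accessibility and RNA clusters bear the same numbers, and they are set beside each other here by number. The labels do not say how the accessibility clusters were numbered. If they were matched to RNA through the accessibility of genes, the accessibility and RNA values below are not independent of each other.

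The numbers 17 to 21 were checked against lists of tissue marker genes in the nucleus RNA. Of 27 xylem markers with at least 0.5 UMI per 10000 in their highest cluster, 24 were highest in cluster 21, among them the cellulose synthases of the secondary wall CESA4, CESA7 and CESA8. Of 23 phloem markers at that level, 9 were highest in cluster 17, including the sieve element genes CALS7, CVP2 and OPS, and 8 were highest in cluster 19, including the companion cell genes SUC2 and APL. Cluster 18 held the highest value of 3 of 5 pericycle markers, namely NPF7.3, PHO1 and HKT1. Cluster 20 held that of 5 of 17 procambium and stele markers, namely PHV, REV, SHR, PIN3 and PIN7, and cluster 21 that of 9 others. None of the 12 endodermis, 10 epidermis and root hair, 1 cortex and 2 root cap markers at that level was highest in clusters 17 to 21. The label stele thus matched the marker RNA of the clusters with those numbers.

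Among the 300 regions the ratio of stele to other clusters had a median of 2.99 and ran from 2.51 to 11.6, beside a median of 0.946 over all regions. At the lower end the ratios formed a continuum. The last 3 regions inside the limit were chr4:8137280-8139003, chr3:11534974-11535199 and chr2:2055910-2057398, with ratios of 2.512, 2.511 and 2.509. The first 3 outside it were chr1:7057789-7057945, chr4:8007477-8007887 and chr2:16894028-16894460, with 2.508, 2.506 and 2.502. The regions were narrow, with a median width of 494 bp (range 12 to 3737) against 1714 bp for all regions. Of the 300, 44 were under 200 bp, which is 14.7% against 1.93% of all regions. Low fragment numbers in narrow regions were not tested as a source of high ratios, since fragment counts are not given.

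Most regions were open in several stele clusters at once. In 117 regions all 5 stele clusters were at least 2-fold above the mean of the other clusters, in 109 regions 4 were, in 56 regions 3 were, and in 18 regions fewer. The median accessibility of the 300 regions was 1.35 in cluster 17, 0.887 in cluster 18, 1.02 in cluster 19, 1.22 in cluster 20 and 0.891 in cluster 21. By the stele cluster with the highest value, 102 regions belonged to cluster 19, 97 to cluster 17, 68 to cluster 20, 20 to cluster 18 and 13 to cluster 21. The shares of all regions led by each cluster, or with as many clusters at 2-fold, were not set out. These counts are therefore not read as a trait of the 300 regions.

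**Figure D1:**
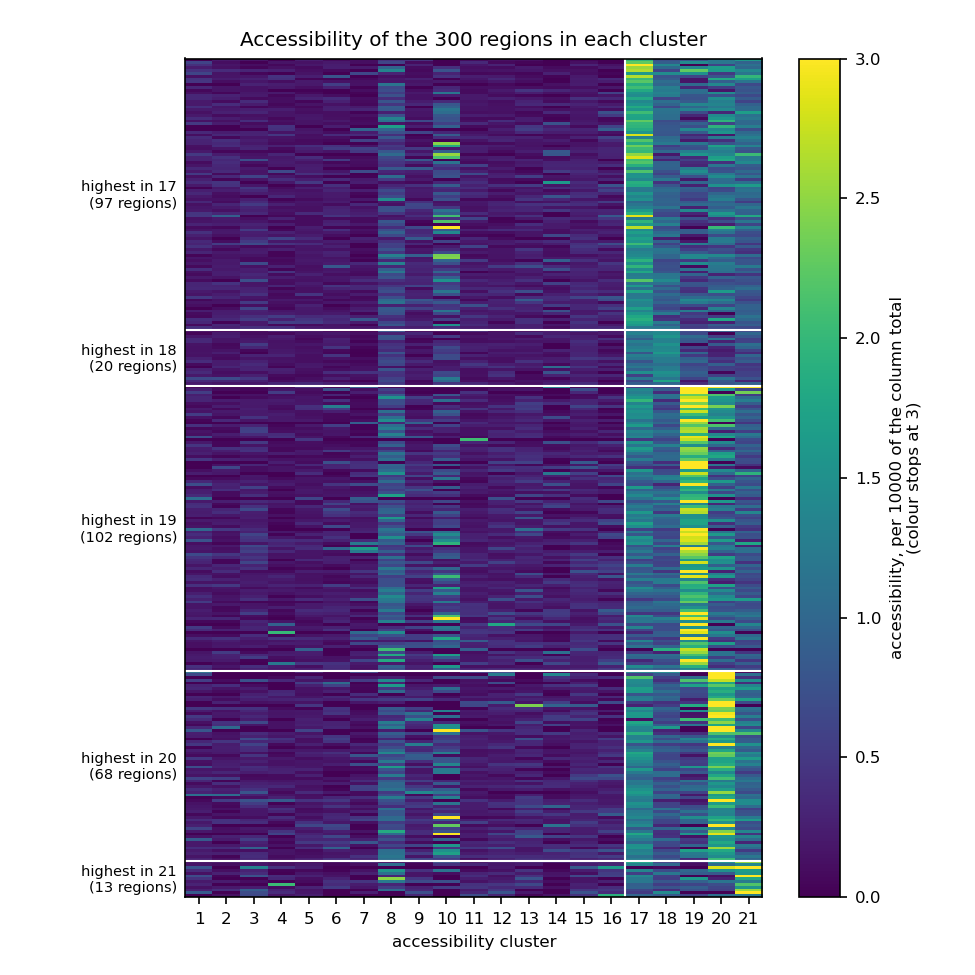
Accessibility of the 300 regions (rows, grouped by the stele cluster with the highest value) in the 21 clusters (columns), per 10000 of the column total; colours stop at 3. Besides the chosen clusters 17 to 21, right of the white line, clusters 8 and 10 stand out in many rows.

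Outside the stele the regions were not evenly closed. Cluster 8 had a median accessibility of 0.706 and cluster 10 of 0.546, while the medians of the other 14 clusters lay between 0.141 and 0.265. Of the 300 regions, 121 had their highest non-stele value in cluster 8 and 91 in cluster 10, together 70.7% against 17% of all regions. Because the mean of these clusters entered the ratio, this is a description too. In nucleus RNA, cluster 10 held the highest value of the cell division genes CDC20.1, KNOLLE and CYCB1;3, and also of the phloem genes HCA2 and CLE45, and no listed marker at 0.5 UMI per 10000 was highest in cluster 8. Of the 300 regions, 9 (3%) were also among the 300 regions with the highest ratio of clusters 8 to 10 to the rest, a list that holds 1.44% of all regions.

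**Figure D2:**
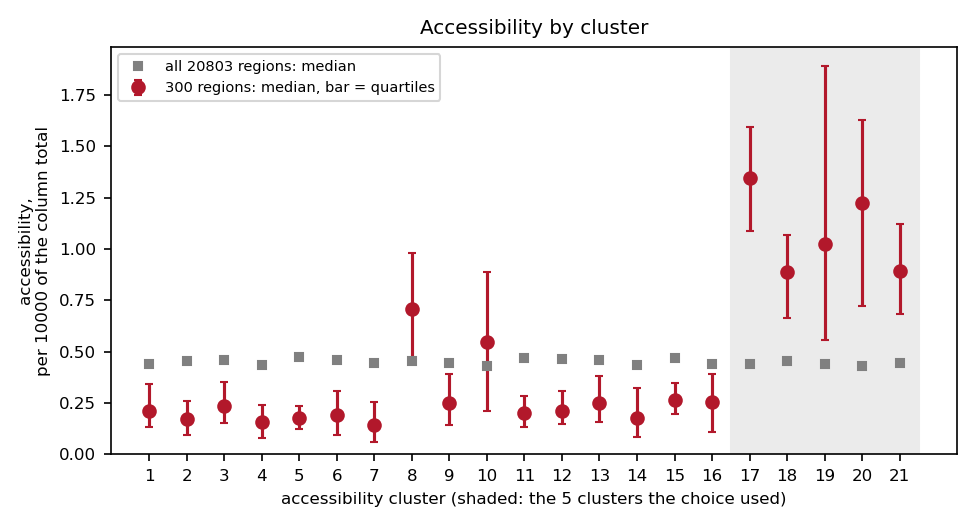
Median accessibility of the 300 regions (red, bars run from the lower to the upper quartile) and of all 20803 regions (grey) in each cluster, per 10000 of the column total. The red medians are above the grey ones in the 5 shaded clusters and in clusters 8 and 10, and below them in the other 14.

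In 15 regions the highest of all 21 values lay outside the stele, in cluster 10 for 12 of them, in cluster 8 for 2 and in cluster 16 for 1. Of these 15 regions, 8 touched no gene, and the 7 touched genes were AT1G08440, AT5G14890, MYB78, CLE26, SMXL4, CYP735A1 and SUC1. The region chr4:14635505-14636584 overlaps SMXL4, a gene of the SMAX1-like family needed for phloem formation, and had 2.45 in cluster 10 beside 1.58 in cluster 17. The region chr1:26352891-26353452 overlaps CLE26, which encodes a small signalling peptide, and had 2.15 in cluster 10 and 2.11 in cluster 19. At chr1:27055368-27056147, on the sucrose carrier gene SUC1, the values were 1.71 in cluster 10 and 1.61 in cluster 20.

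Gaps between annotated genes held 132 of the 300 regions, or 44.0%, against 10.5% of all regions. Narrow regions lay in gaps more often in the whole table too, so the shares were also set out by width. They were 53.5% against 31.7% of all regions under 300 bp, 54.2% against 34.1% from 300 to under 600 bp, 31.5% against 14.5% from 600 to under 1200 bp, and 26.5% against 3.33% at 1200 bp or more. The other 168 regions touched 195 genes, of which 155 code for protein, 24 for long noncoding RNAs and 1 for the microRNA gene MIR395c. The same split by gene type was not set out for all touched genes. Of the 300 regions, 136 touched only 1 gene and 32 touched 2 or more, beside 7559 and 11056 of all 20803 regions. By chromosome, 90 regions lay on chromosome 1, 50 on 2, 47 on 3, 46 on 4 and 67 on 5, which is 30.0%, 16.7%, 15.7%, 15.3% and 22.3% beside 26.5%, 16.1%, 19%, 15.1% and 23.3% of all regions.

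Regions lay close together at some loci. With regions within 5000 bp of each other counted as 1 locus, the 300 regions formed 251 loci, of which 37 held 2 or more and together 86 regions. Loci were not counted for other sets of 300 regions, so these counts are not read as a trait of the chosen ones. The largest locus held 6 regions between positions 17382056 and 17394114 of chromosome 1, around the genes AT1G47395, AT1G47400 and AT1G47410, to which the annotation gives no name. Accessibility there was highest in cluster 19 in 5 of the 6 regions, with 1.72, 2.74, 1.92, 2.58 and 2.75 in order of position, and in cluster 17 with 2.26 in the last, which overlaps AT1G47410. RNA was highest in cluster 19 for AT1G47395 (2.74 UMI per 10000) and AT1G47400 (1.28), and in cluster 21 for AT1G47410 (5.38), the gene of the last region. Loci of 3 regions were found, among others, at AGL12, at NIK2, at SMXL5, at the transcription factor gene NTT and beside the auxin synthesis gene YUC6, which had 2 more regions on its other side. The 509 regions that adjoin a chosen region without being chosen had a median ratio of 1.16, and 8.25% of them were at 2 or more against 3.27% of all regions.

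By the rule for naming regions, the highest ratios in each stele cluster come next. The highest of all was chr4:4780735-4780831, 96 bp in a gap, with 4.93 in cluster 19, 4.58 in cluster 20 and 4.0 in cluster 21 but 0.47 in cluster 17 and 0.49 in cluster 18. It had no neighbouring gene at 0.5 UMI per 10000. Of the 6 leading regions of cluster 17, the first was chr3:9365067-9365391, next to TMO5, a bHLH factor that drives the divisions of vascular cells. Its accessibility was 1.96, 0.75, 0.82, 1.2 and 1.59 in clusters 17 to 21, with a mean of 0.132 and a highest value of 0.45 in the other clusters. TMO5 RNA was 1.75, 0.75, 0.05, 0.10 and 2.47 UMI per 10000 in the same order, so that clusters 17 and 21 were highest in both readouts.

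The next region of cluster 17, chr1:3859019-3859335, overlaps UMAMIT26 and had 2.26 there. The others of that cluster were chr1:21973987-21974009 (22 bp), chr5:8925921-8926415 next to YUC6, chr5:4230488-4230837 and chr4:1233187-1233395, with ratios of 5.28, 5.21, 4.72 and 4.69. In cluster 18 the leading regions had lower ratios, from 3.13 to 3.67. Of its 6 regions, 4 lay next to MYB28, YUC6, UMAMIT12 and GDU4, the last a glutamine dumper gene of amino acid export, 1 lay on SWEET12 and 1 on AT5G15070. These 4 are the neighbours with the higher RNA ratio, with log2 ratios of 2.70, 2.68, 2.72 and 2.92. The genes on the other side were NAC100, AT5G25630 and AT2G37470, with -0.69, 0.97 and -0.07, and SDG21, which stayed under 0.5 UMI per 10000.

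In cluster 19 the regions after the first were chr1:7332676-7332980 with 4.11 there, chr5:697140-697309 on AT5G02970 with 3.15, chr1:4699795-4700188 between PGL1 and CYP78A5 with 2.31, chr2:11661285-11661471 on AT2G27240 with 2.75 and chr3:1045239-1045728 on AT3G01385 with 3.90. In cluster 20 they were led by chr4:7410069-7410143 on AT4G12490 with 6.22 and chr2:7542526-7542538 on AT2G17340 with 6.4, which are 74 and 12 bp wide and had 0 in cluster 19. Others of cluster 20 were chr2:11839604-11839767, chr1:17800459-17800628 on AT1G48210 and chr1:23243100-23243131, with 2.73, 1.78 and 2.24 there. In cluster 21 the leading regions were chr1:9181679-9182270 on BGLU40 and UGD1 with 2.53, chr1:24675016-24675673, chr3:17833923-17834047 on AT3G48200, chr1:13361427-13361822, chr1:20345593-20346082 on RPP27 and chr1:4165779-4165965 on VND4.

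RNA did not enter the choice. Of the 195 touched genes, 133 were in the nucleus RNA table, and 81 of these had at least 0.5 UMI per 10000 in their highest cluster. Compared by the log2 ratio of the mean of clusters 17 to 21 to the mean of the other 16, each plus 0.1, 65 of the 81 genes were at least 2-fold higher in the stele, against 10.0% of the 12922 genes touched by any region. The share among the 81 was 80.2%, 1 gene was 2-fold lower against 13.1% of all touched genes, and 15 lay between. Their median log2 ratio was 1.95, beside -0.003 for all touched genes. At 4-fold, 40 of the 81 genes were higher, against 3.28% of all. The highest of the 21 clusters was a stele cluster for 70 of the 81 genes, against 26.1% of all. A gene could reach the minimum level through a stele cluster alone. Without that level, 66 of the 133 genes in the table were 2-fold higher, or 49.6%, against 6.10% of all touched genes. No test was possible, since each cluster is 1 average.

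**Figure D3:**
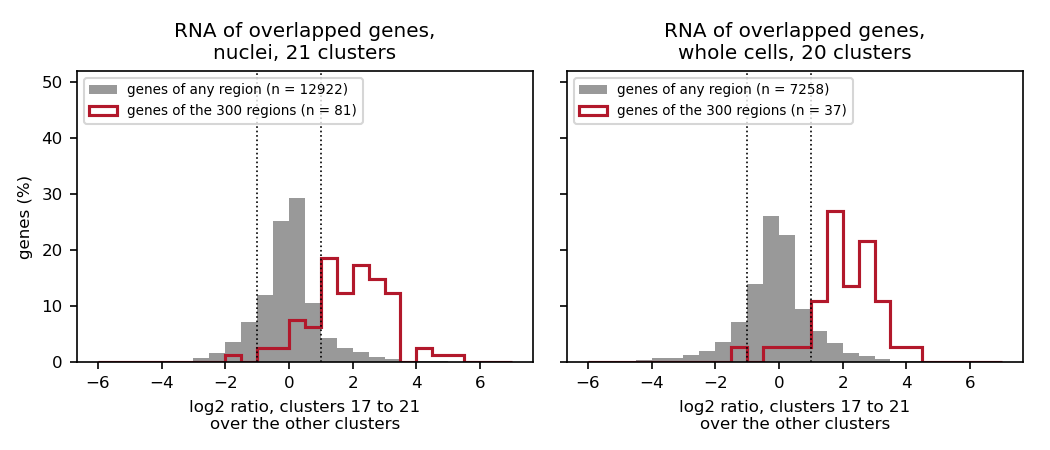
Distribution of the log2 RNA ratio of clusters 17 to 21 to the other clusters, for genes touched by any region (grey) and by the 300 regions (red), in nuclei (left) and whole cells (right), in percent of genes; dotted lines mark 2-fold. The red outline lies mostly right of the upper dotted line in both panels.

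In whole cells, 37 of the 133 genes reached 0.5 UMI per 10000. Of these, 33 were 2-fold higher in clusters 17 to 21, which is 89.2% against 12.4% of the 7258 genes touched by any region, and 1 was lower against 15.5%. The median log2 ratio was 2.04 beside -0.10. Of 34 genes that reached the level in both tables, 30 were higher in both. The same count was not set out for all touched genes, so it has no share beside it. Here too a gene could reach the level through a stele cluster alone. Without a minimum level, 40 of the 133 genes were 2-fold higher in whole cells, or 30.1%, against 4.58% of all touched genes. Whole-cell cluster 14 is missing from that table, so 15 other clusters were averaged there.

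Regions in gaps were read against the protein-coding genes on either side. Of the 132 gap regions, 98 had a neighbour with at least 0.5 UMI per 10000. At 68 of the 98, or 69.4%, at least 1 neighbour was 2-fold higher in the stele, against 31.6% of the 1378 gap regions of the whole table with such a neighbour. At 6 of the 98 a neighbour was 2-fold lower, against 19.9%. Here too a neighbour could reach the level through a stele cluster alone. Where both neighbours reached it, either could make the region count as higher. Counts without a minimum level were not set out for gap regions. Of 42 gap regions with both neighbours at that level, 30 had 1 higher neighbour, 7 had 2 and 5 had none. The same split was not set out for all gap regions, so these counts have no share beside them. Which neighbour a gap region acts on was not tested.

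The genes of the next paragraphs were grouped by role after their values were seen, apart from those named by the rule or held in the marker lists. Their RNA values are of nuclei unless whole cells are named. Many of those plotted by role stayed under 0.5 UMI per 10000 in every whole-cell cluster. At most 0.038 there were SULTR2;1, PHO1;H1, MYB28, MYB48, UMAMIT12, UMAMIT20, UMAMIT26, AAP6, SWEET13, KAT1, WOX4 and ANT. Also under 0.5 were SULTR3;4, VND5, SMXL4, SMXL5, BAM3, XIP1, NIK2, SWEET12 and YUC6. Among the touched genes, AAP4 and AAP2, amino acid permeases of the vascular tissue, had the highest log2 RNA ratios, 5.04 and 4.87. AAP2 RNA was 4.39, 1.44, 104, 0.51 and 0.82 UMI per 10000 in clusters 17 to 21, with a highest value of 2.34 elsewhere. In whole cells its highest value was 0.68. Its region chr5:2868572-2869538 had accessibility of 1.35, 0.84, 1.49, 2.30 and 1.04 in the same clusters, so that RNA was concentrated in the companion-marked cluster 19 while the chromatin was open in all 5 and most in cluster 20.

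For AAP4, RNA was 41.1 UMI per 10000 in cluster 19 and at most 0.87 in every other cluster. Its region chr5:25550849-25551317 was also highest there, with 3.90 against 0.79, 0.66, 1.61 and 0.72 in clusters 17, 18, 20 and 21. AAP6, a further permease with a region (chr5:20143504-20143905), had 1.07 UMI per 10000 in cluster 17 and a log2 ratio of 1.79. Both readouts were highest in cluster 17 for AAP6. The same range was reached by CYP71A27, a cytochrome P450 gene next to chr4:10935329-10936583, with 23.9 UMI per 10000 in cluster 19 and a log2 ratio of 4.87, and by AT5G22090, a gene without a name that 2 regions touch, with 13.4 in cluster 19 and a log2 ratio of 4.23.

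The UMAMIT family, whose name stands for usually multiple acids move in and out transporters, had regions on UMAMIT20, UMAMIT22, UMAMIT26 and UMAMIT30 and next to UMAMIT12, UMAMIT32 and UMAMIT35. UMAMIT32 has no value in the RNA tables used here. UMAMIT30 RNA was 16.7 UMI per 10000 in cluster 18 and 5.47 in cluster 17, with a log2 ratio of 2.68. The readouts differed, since its region chr4:608415-608691 was highest in cluster 17 with 1.35, beside 1.03 in cluster 18. UMAMIT20 and UMAMIT12 RNA was highest in cluster 18 too, with 3.61 and 5.10. Their regions (chr4:5238438-5239137 and chr2:15730055-15730592) had their highest accessibility in that cluster, 1.41 and 1.55. UMAMIT22, with 2 regions, was highest in cluster 19 in RNA (3.51) and accessibility (1.87 at chr1:16443297-16444154). For UMAMIT26 the readouts also differed, since RNA was 1.45 in cluster 19 and at most 0.01 in any other cluster, while its region was highest in cluster 17. A gap region next to UMAMIT35 was the exception in direction, with the RNA of this gene 2-fold lower in the stele (log2 ratio -1.2).

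Sugar carriers and the proton pump of companion cells followed. Next to AHA3, the H+-ATPase of companion cells, chr5:23238214-23238810 had 1.51 in cluster 19, and AHA3 RNA was 10.8 UMI per 10000 there against at most 0.27 in any other cluster. Next to SWEET13, a sucrose efflux carrier, chr5:20668042-20668289 had 3.09 in cluster 19 and at most 0.97 elsewhere, and SWEET13 RNA was 1.07 in cluster 19. SWEET12, of the same family, lay under chr5:7972022-7972876, which was highest in cluster 18 (1.33) as was its RNA (0.53), and its log2 ratio of 0.95 stayed under 2-fold. SUC1 RNA was highest in cluster 20 (2.39), with a log2 ratio of 2.26. KAT1, a potassium channel, had RNA of 0.55 in cluster 19, where its region chr5:18747016-18748004 was highest too, with 2.45. A second region next to KAT1, chr5:18750280-18750506, was highest in cluster 20.

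Carriers of inorganic nutrients included SULTR2;1 and SULTR3;4, sulfate transporters, and PHO1;H1, a relative of the phosphate exporter PHO1. SULTR2;1 RNA was 2.89, 5.87, 0.92, 1.19 and 0.27 UMI per 10000 in clusters 17 to 21 (log2 ratio 3.04), and its region chr5:3192997-3193360 had 1.34, 0.93, 1.25, 0.71 and 0.79. PHO1;H1 RNA was 4.73 in cluster 18 and 4.61 in cluster 19 and at most 0.79 in any other cluster (log2 ratio 3.07). Its region chr1:25814499-25815073 was highest in cluster 17 with 1.38, beside 1.10 in cluster 18 and 0.86 in cluster 19. SULTR3;4 RNA was highest in cluster 19 with 3.15 in nuclei, and its log2 ratio was 2.67. The gap regions next to it, chr3:5420025-5420826 and chr3:5423412-5424062, were highest in clusters 17 and 19. In whole cells SULTR3;4 stayed under 0.5 UMI per 10000, with a highest value of 0.43, as did SULTR2;1 with 0.038 and PHO1;H1 with 0.0045. In cluster 18 stood also MYB28, the regulator of aliphatic glucosinolate synthesis, with 7.65 UMI per 10000, and IMS2, also called MAM3, an enzyme of glucosinolate side chain elongation, with 22.2. Regions next to them, chr5:24696688-24697175 and chr5:7723288-7723677, both had their highest accessibility in cluster 18. A second region next to MYB28, chr5:24692732-24695282, was highest in cluster 17.

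Transcription factors of the xylem were touched at VND4, VND5 and VND7, NAC factors that switch on vessel formation. Their RNA was nearly confined to cluster 21 among the 21 clusters, with 1.61, 0.69 and 0.86 UMI per 10000 there against at most 0.10 for any of the 3 genes elsewhere. VND4's region, chr1:4165779-4165965, had 3.29 in cluster 21, 1.38 in cluster 17 and 0 in cluster 19. VND5's region, chr1:23219044-23220036, was also highest in cluster 21 with 1.57, beside 0.95, 0.78, 0.90 and 0.63 in clusters 17 to 20. VND7's region, chr1:27074567-27076195, had 0.89, 1.01, 0.37, 0.79 and 0.92 in clusters 17 to 21, so its accessibility did not single out cluster 21. Both regions at NAC012, a factor of fibre wall thickening also called SND1 or NST3, lay at a gene listed at 0 in all 21 clusters of the nucleus RNA and at no more than 0.015 UMI per 10000 in whole cells.

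Factors of the procambium were touched at CNA, a class III HD-ZIP factor that the annotation calls ATHB-15, and at WOX4, a homeobox factor that keeps vascular stem cells dividing. CNA RNA was 2.05, 1.13, 0.92, 3.22 and 4.51 UMI per 10000 in clusters 17 to 21 (log2 ratio 2.55), and its region chr1:19407796-19410231 had 1.17, 0.93, 0.76, 1.59 and 0.95. WOX4 RNA was 0.99 in cluster 17 and 0.85 in cluster 10, with a log2 ratio of 1.27. Its region chr1:17237313-17239256 was highest in cluster 20 with 1.33, beside 1.30 in cluster 17. Next to ANT, an AP2-type factor of dividing cells, chr4:17737850-17738322 had 1.59 in cluster 17 and 1.53 in cluster 10, and ANT RNA was likewise highest in those clusters with 2.72 and 1.36. Next to AGL12, a MADS factor of the root vasculature, chr1:26959252-26960464 was highest in cluster 19 with 2.22, and the RNA was 6.08 there against at most 1.61 elsewhere. MYB48 RNA was highest in cluster 18 with 5.23, and its region chr3:16944123-16945544 was highest there too, with 1.42 beside 1.38 in cluster 17.

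Phloem regulators were touched at SMXL4, SMXL5 and BAM3, a receptor kinase that reads CLE peptides in the protophloem. All 3 had their highest RNA in the sieve-element-marked cluster 17 and their next highest in cluster 10. BAM3 RNA was 6.97, 2.11, 3.61, 3.54 and 2.23 UMI per 10000 in clusters 17 to 21 and 5.92 in cluster 10, and its region chr4:10949003-10950373 had 1.57, 1.14, 1.33, 1.42 and 1.04, with 1.15 in cluster 10. Over the 21 clusters the Spearman correlation of the region with the BAM3 RNA was 0.91, the highest among the 38 genes of the plot by role. SMXL4 and SMXL5 RNA reached 1.61 and 2.74 in cluster 17 and 1.15 and 1.10 in cluster 10. In accessibility, SMXL5's region chr5:23144042-23145990 was highest in cluster 17 with 1.35.

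Other receptors were BRL2, a vascular relative of the brassinosteroid receptor, NIK2, and XIP1, also known as CEPR1, the receptor of C-terminally encoded peptides. BRL2 RNA was 3.09, 0.54, 2.35, 5.81 and 3.34 UMI per 10000 in clusters 17 to 21 (log2 ratio 3.38), and its region chr2:443787-444435 had 1.11, 1.0, 2.30, 1.67 and 0.73. XIP1 RNA was 7.46 in cluster 19 and at most 0.63 elsewhere, and the region next to it, chr5:20158846-20159511, was also highest in cluster 19 with 2.53. NIK2 RNA was 6.81 in cluster 19 and 4.70 in cluster 17, with a log2 ratio of 3.05. Auxin genes beside YUC6 were YUC8, whose RNA was 1.99 in cluster 20, and ENP, a gene of polar auxin transport also called MAB4, with 4.97 in cluster 20. Of the gap regions next to ENP, chr4:15398924-15399137 was highest in cluster 17 and chr4:15397060-15397339 in cluster 20. In whole cells YUC8 reached 3.24 UMI per 10000 and was not higher in the stele, with a log2 ratio of -0.19, while that of ENP was 2.65. Wall proteins were XYP2, a xylogen protein with 2 regions and 11.1 UMI per 10000 in cluster 20, and XTH15, a xyloglucan-modifying enzyme with 12.6 there. IQD12, of the IQ-domain family, had 13.4 in cluster 20 and at most 0.63 in any other cluster (log2 ratio 4.25), while its region chr5:1069965-1071116 had 2.19 in cluster 19 and 2.15 in cluster 20.

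**Figure D4:**
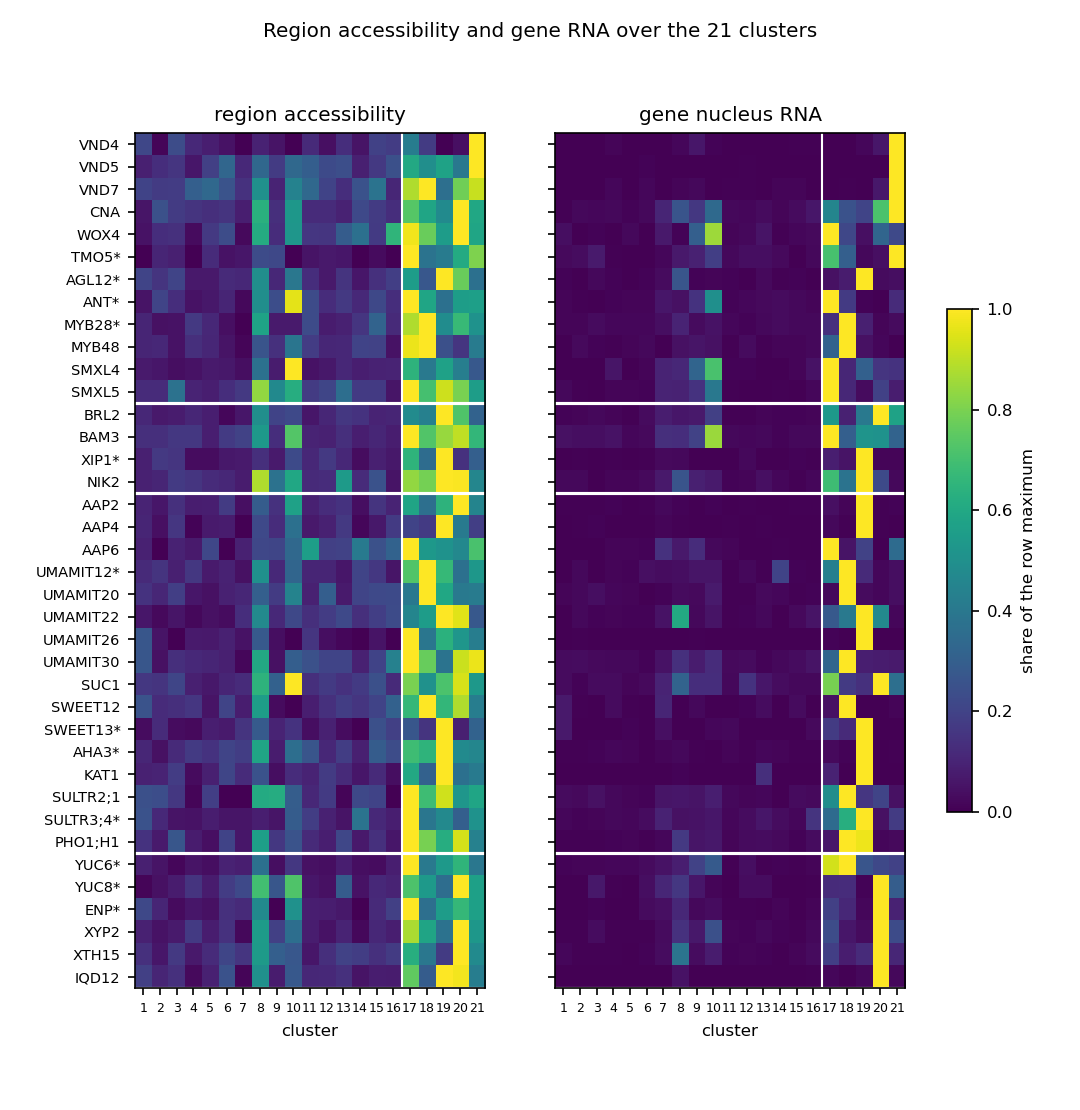
Accessibility of 38 regions (left) and nucleus RNA of the gene each touches or, for names with an asterisk, lies next to (right), over the 21 clusters, each row as a share of its own maximum; white lines part regulators, receptors, transporters, and hormone and wall genes. Bright RNA cells are mostly single clusters right of the vertical line, while accessibility is spread over clusters 17 to 21 and often 8 and 10.

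RNA was more concentrated in single clusters than accessibility. For the 86 pairs of a chosen region and a touched gene with at least 0.5 UMI per 10000, the highest of the 5 stele clusters held a median of 32.9% of their summed accessibility and 52.9% of their summed RNA. Over all 19629 pairs of the table these medians were 24.9% and 32.6%. The share was larger in RNA than in accessibility for 83.7% of the 86 pairs and 83.1% of all pairs, so this order is general to the table. The Spearman correlation of accessibility with RNA over the 21 clusters had a median of 0.52 in the 86 pairs and 0.25 over all pairs, as a description without a test.

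The stele cluster with the highest accessibility was also that with the highest RNA in 49 of the 86 pairs, or 57.0%, against 29.5% of all pairs. By cluster, this held for 22 of 32 pairs of cluster 19, 11 of 23 of cluster 20, 10 of 21 of cluster 17, 4 of 7 of cluster 18 and 2 of 3 of cluster 21. Of the 21 pairs of cluster 17, 6 had their highest RNA in cluster 18. The 30 genes of regions led by cluster 19 had a median RNA of 7.12 times their mean over clusters in cluster 19, and 1.26 times in cluster 17, the next highest. The 21 genes of regions led by cluster 17 had 4.31 times in cluster 17 and 1.64 times in cluster 21.

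**Figure D5:**
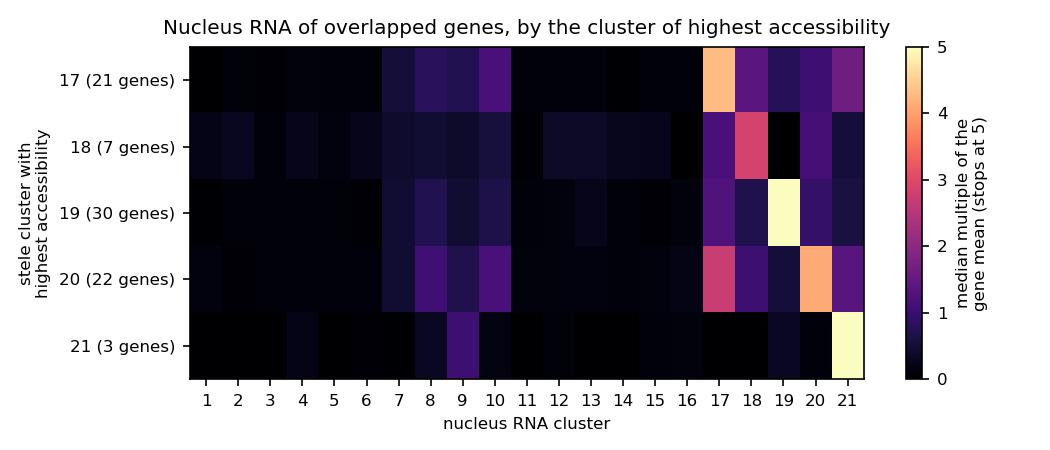
Median nucleus RNA of the touched genes in each RNA cluster, as a multiple of each gene's mean over the 21 clusters (colours stop at 5), with genes grouped by the stele cluster in which their region was most accessible. In every row the brightest cell is the cluster with the same number.

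Some touched genes did not follow. AT4G02800, under chr4:1251726-1252638, was the 1 gene at 2-fold lower in the stele, with at most 0.19 UMI per 10000 in the stele clusters and 5.59 in cluster 10 (log2 ratio -1.60). It was lower in whole cells too, with a log2 ratio of -1.22. By the rule for the lowest named genes, AST91, a sulfate transporter of the SULTR group, had a log2 ratio of -0.55, WSIP2 of -0.05, ALF4, a gene of lateral root formation, of 0.10, and the gene with the symbol SYCO ARATH of 0.30. SWEET12, given above, was the fifth. AT2G17340, under the 12 bp region that ranked sixth, had -0.04. The 55 genes among the 81 that were also touched by other regions had 71 such regions, whose median stele ratio was 1.10.

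Of the lists of marker genes, the regions touched 4 of 30 phloem genes (SMXL4, SMXL5, BAM3 and SWEET12), 3 of 30 xylem genes (VND4, VND5 and VND7), 2 of 21 procambium and stele genes (CNA and WOX4) and none of 7 pericycle genes, while over all genes of the nucleus RNA table they touched 0.572%. Regions in gaps lay next to 3 more phloem genes (PEAR2, which is AT5G02460, SWEET13 and AHA3) and next to TMO5 of the procambium and stele genes. No gene of the 12 endodermis, 10 epidermis and root hair, 3 cortex, 3 root cap and 6 cell cycle genes was touched or neighboured, and at that overall share lists of this size would seldom hold a touched gene. In nucleus RNA, 19 of 23 phloem, 24 of 27 xylem, 3 of 5 pericycle and 13 of 17 procambium and stele markers at 0.5 UMI per 10000 were 2-fold higher in the stele, with median log2 ratios of 1.79, 2.42, 1.72 and 1.38. Over all regions that touch these genes, chosen or not, the median accessibility ratio was 1.16 for phloem, 1.0 for xylem, 1.10 for pericycle and 1.23 for procambium and stele genes, beside 0.819 for endodermis and 0.776 for epidermis and root hair genes. Xylem markers thus had the highest median RNA ratio of these lists, while the median accessibility ratio of their regions was the lowest of the 4 stele lists.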

How the data were processed

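Single-nucleus ATAC-seq (2 libraries) and RNA-seq (5 libraries) of roots were deposited as 1 average signal per region or gene and cluster, pooled over libraries. Per the submitters' processing notes, Signac 0.2.5 and Cell Ranger ATAC 1.2 were among the tools, as were Cell Ranger 3.1.0 and Seurat 3.1.5, with TAIR10 as the build. The tables hold no barcodes and no counts, and doublet treatment is not given in the sources used here. The deposited accessibility signal had column totals of 10532 to 14125. Each column of the 3 tables was scaled to 10000. Members were ranked by the ratio described in the report (pseudocount 0.1). Genes were linked to a region by an overlap of 1 bp or more with the gene body in RefSeq's TAIR10.1 annotation, which was used for names and neighbours and not for coordinates. It held all 23241 genes of the RNA tables. The planned link by nearest gene start, position classes by gene start, motifs and sequences need strand or genome sequence and were not analysed here. RNA was compared as log2 of mean plus 0.1, among genes at 0.5 per 10000 or more, with 2-fold as the limit. Region coordinates are as in the deposited table, and widths are end minus start.

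The regions named were the 6 highest-ranked of each stele cluster, those at listed genes, the 10 highest and 5 lowest RNA ratios among touched genes with a symbol, and 3 on either side of the limit; 1 region of cluster 20 is not reported here. Among the 10 highest RNA ratios were AAP4, AAP2, IQD12, BRL2, PHO1;H1, NIK2, SULTR2;1, MYB48, XYP2 and UMAMIT30. The members, lists and rules were chosen with earlier results of these data known. Scripts were tested on simulated data. With no replicate values, no test was run. The 2 bulk RNA libraries (6-day-old plants) were not used. Python 3.11.15, pandas 2.3.3, NumPy 2.4.6 and Matplotlib 3.10.9 were used.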

Additional observations from a re-analysis of the deposited data

How the results depend on the processing

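The list of regions depended most on how the other clusters were summarised. Against the highest of the 16 other columns in place of their mean, 163 of the 300 regions remained, and with 150 members, 150 by construction. In the other 12 alternatives that change the list, 208 to 300 of the main members remained. The 300 came from the list of 600 members, again by construction, and the next highest was 294 without scaling. The number of touched genes 2-fold higher in nucleus RNA was within 1.5 times of 65 in 16 of 21 alternatives. That limit is on the count and not on the share, which was 80.2% in the main setting. Against the highest of the 16 other columns it was 70 of 123 genes, or 56.9%, and without an RNA floor 66 of 133, or 49.6%. Beyond that limit, the number was 36 of 46 genes with 150 members and 125 of 188 with 600 members. It was 38 of 39 with an RNA floor of 2 (15.3% of all touched genes in that setting) and 22 of 81 with an RNA pseudocount of 1 (2.07% of all). With the nearest protein-coding gene to the region's centre it was 102 of 137 (10.6% of all). For whole-cell RNA the number was 19 of 22, 65 of 76, 13 of 13, 8 of 37 and 51 of 61 in the same order. The shares of all touched genes in whole cells were 14.2% with an RNA floor of 2, 2.60% with pseudocount 1 and 13.5% with the nearest gene. Pairs with the same highest cluster were 26 of 47 with 150 members, 102 of 205 with 600, 31 of 43 with an RNA floor of 2 and 87 of 160 with the nearest gene. The links by nearest gene, by protein-coding genes only and by regions that touch 1 gene, the list from regions of 200 bp or more, and the list without columns 8 and 10 were chosen after seeing the data. The planned limit to a gene start within 1000 bp was not run, since strand was not given. No paired analysis was possible because the tables pool the libraries. Depth and replicate spread are unknown, so no value has an error, and narrow regions cannot be weighed by their fragment numbers.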
